A study of Mus musculus with 27 samples.

Results

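The step from 6 h to 12 h in ischemic mouse cortex was followed in 6 small RNA libraries of a series of 27. Each library came from the ipsilateral cortex, on the side of the blocked artery, of wild-type C57BL6 mice aged 7 to 8 weeks after middle cerebral artery occlusion (MCAO). A nylon suture closed the right middle cerebral artery, which feeds the lateral cortex, for 35 min under isoflurane, and tissue was taken after 6 h (3 libraries) or 12 h (3 libraries) of reperfusion. The libraries were chosen by their labelled side and time, and each 12 h library was set against the 6 h library with its replicate number, which the series' design text ties to a separate day of surgery. The comparison asks which mature microRNAs differ between the earlier and the later time in the injured hemisphere. The other 21 libraries are cortex of sham-operated mice, contralateral cortex at 3, 6, 12 and 24 h, and ipsilateral cortex at 3 h and 24 h, 3 of each. They served to estimate the spread, and the contralateral pair of times gave the same step in the opposite hemisphere. Operated mice were kept only where laser Doppler flowmetry showed that flow over the cortex had dropped and then recovered past set limits. Whether the lesion core and its border were separated was not given in the sources used here.

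MicroRNAs are short RNAs cut from hairpin precursors and loaded into Argonaute proteins. They pair through their seed, the bases near the 5′ end, with target mRNAs and lower the output of those mRNAs. A hairpin can give a product from its 5′ arm (5p) and its 3′ arm (3p), and often 1 of them dominates. Adult cortex is dominated by a small set of neuronal and ubiquitous microRNAs, such as the let-7, miR-181, miR-9, miR-124 and miR-128 families. In a transient occlusion, blood flow returns early while injury, glial activation and entry of blood leukocytes develop over the following day.

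The 6 libraries held between 856591 and 1271064 counts. Levels below are CPM, each count divided by the product of library total and TMM scaling factor and put on the usual CPM scale, and neuron-enriched miR-124-3p, miR-9-5p and miR-128-3p were abundant in all 6, with summed levels of the 8 tested neuron-enriched entries between 91540.2 and 198364 CPM. The muscle markers miR-1a-3p and miR-206-3p and the leukocyte marker miR-142a-3p were too rare to be tested. Some libraries stood apart. In replicate 3 at 6 h the 6 tested microRNAs of the miR-200 family and the miR-183 cluster, known from epithelial and sensory cells, summed to 25356 CPM, against 385 to 756 CPM in the other 5. Replicate 3 at 12 h had the highest levels of many entries, such as miR-6240, at 2986 CPM against a median of the 6 libraries of 176 CPM. Replicate 2 at 12 h had the lowest TMM factor of the 27 libraries, 0.676, and a median count of 6, against 10 to 13 in the other 5. Entries with at least 1 count numbered 1819 ± 1.73 at 6 h and 1788 ± 28.9 at 12 h (SD, n = 3; exact two-sided permutation test, p = 0.1, the smallest that 3 against 3 allows). The 10 most abundant entries took 56.4% ± 2.41 and 56.2% ± 2.46 of the counts (exact permutation p = 1).

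The sequences below are those of the microRNAs with the smallest p-values of the step, by a naming rule given with the processing, joined by the entries that passed the test when the replicate number was left out of the fit. They come from RefSeq (GRCm38.p6) by name, 5′ to 3′, with the seed (bases 2 to 8) in capitals. No sequence was matched for miR-696 and miR-7666-5p. The first set is higher at 12 h than at 6 h.
miR-701-5p: uUAGCCGCugaaauagaugga
miR-718: cUUCCGCCcggccgggugucg
miR-494-3p: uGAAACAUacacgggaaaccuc
miR-3109-5p: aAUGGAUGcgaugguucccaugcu
miR-5627-3p: aCAGGGCUcuccggcgccccucgu
miR-7237-3p: cAUCCUGUugagcuuaccgagc
miR-1247-5p: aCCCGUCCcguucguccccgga
miR-5134-3p: aCGGGUGGcccucuuucugcag
No 2 of these share a seed. Their genomic neighbourhoods in GENCODE M21 also differ. miR-701-5p lies at chr5:111004170-111004190 on the plus strand, in an intron of Ttc28, and miR-3109-5p at chr9:69456958-69456981 on the plus strand, in an intron of Anxa2. An intron of Ccnf holds miR-5134-3p (chr17:24234535-24234556 on the minus strand), and introns of Banp and Gm20388 hold miR-7237-3p (chr8:121978065-121978086 on the plus strand). miR-718 overlaps an exon of Irak1 (chrX:74023857-74023877 on the minus strand) and miR-1247-5p an exon of Dio3os (chr12:110278094-110278115 on the minus strand). miR-494-3p, at chr12:109715367-109715388 on the plus strand, belongs to the imprinted Dlk1-Dio3 cluster, and neither it nor miR-5627-3p (chr12:44210350-44210373 on the plus strand) overlaps another annotated gene on its strand.

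The entries with the smallest p-values among those lower at 12 h form the other set.
miR-7026-3p: uGUGCUUUcuggucuuggcuuag
miR-380-5p: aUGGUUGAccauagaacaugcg
miR-717: cUCAGACAgagauaccuucucu
miR-1956: aGUCCAGGgcugagucagcgga
miR-6901-3p: gACCUUCUguguucuugcag
miR-3087-3p: uAACUCACugucauguccuca
Introns hold 4 of them: Ep400 (miR-7026-3p, chr5:110666075-110666097 on the minus strand), Gpc3 (miR-717, chrX:52422461-52422482 on the minus strand), Sned1 (miR-6901-3p, chr1:93274585-93274604 on the plus strand) and Abca2 (miR-3087-3p, chr2:25442813-25442833 on the plus strand). miR-1956 overlaps an exon of Eif4e (chr3:138526425-138526446 on the plus strand), and miR-380-5p is another microRNA of the Dlk1-Dio3 cluster (chr12:109711806-109711827 on the plus strand).

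The largest upward values of the step belonged to microRNAs that are not among the abundant ones in sham cortex. There miR-701-5p and miR-718 stood at 18.1 and 28.7 CPM, against a median of 14.1 CPM over all tested entries. The largest downward value belonged to miR-182-5p, which was high in 1 library at 6 h, as were the tested members of the miR-200 family. The abundant cortical microRNAs had small values. The table holds 1842 entries, of which 372 were too rare for the filter on low counts. None of the 1470 tested entries passed edgeR's quasi-likelihood test with the replicate number as a block, in either direction (0%, smallest adjusted p = 0.117). At an unadjusted p under 0.05 stood 125 entries higher at 12 h (8.5%) and 79 lower (5.37%), together 13.9% of those tested. The same count in the contralateral step was 60 entries, or 4.08%, with 26 higher (1.77%) and 34 lower (2.31%). DESeq2 with the same block called 47 entries higher and 2 lower, and gave no adjusted p for 684 entries. Without the block edgeR called 7 entries higher (0.476%) and 0 lower (0%). These 7 were miR-701-5p, miR-718, miR-494-3p, miR-3109-5p, miR-5627-3p, miR-7237-3p and miR-7666-5p, each with an edgeR adjusted p of 0.042 in that fit, and all 7 were also among the 49 DESeq2 calls. The count with the block depended on single libraries: it was 23 higher without replicate 1 at 12 h, 30 higher without replicate 2 at 12 h, and 0 without any 1 of the other 4.

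**Figure D1:**
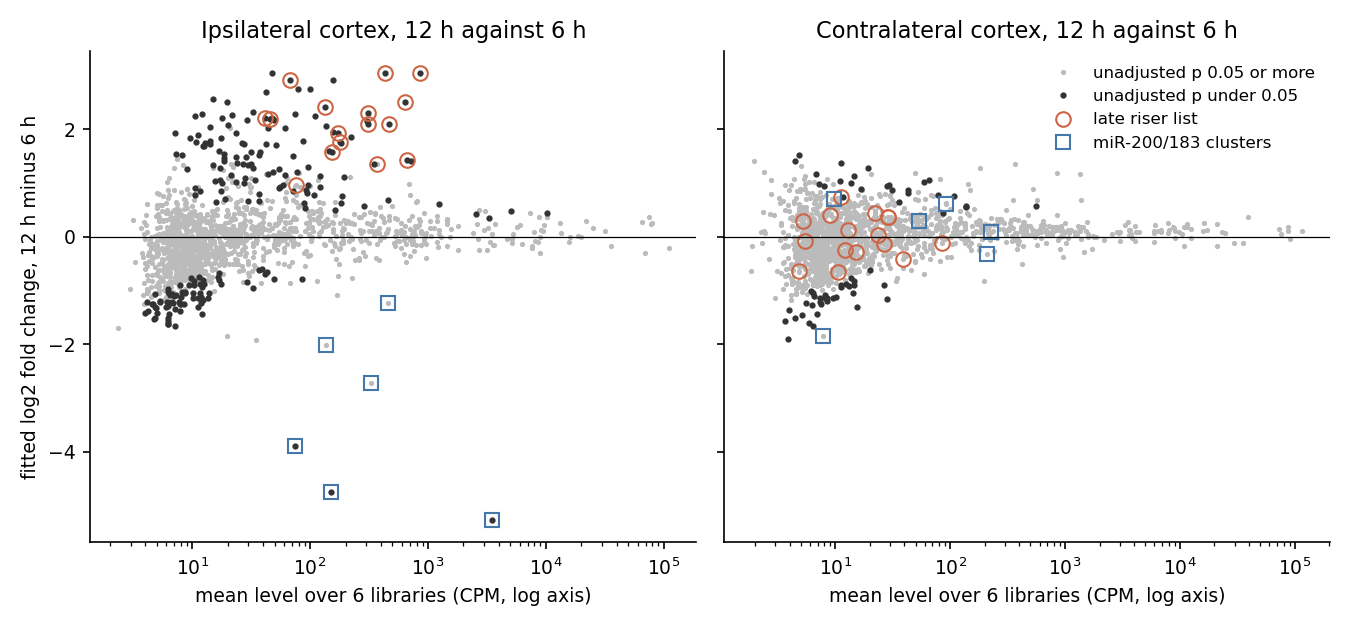
Fitted log2 fold change from 6 h to 12 h (vertical axis) against the mean level over the 6 libraries compared (CPM, log axis) for the 1470 tested entries in ipsilateral (left) and contralateral (right) cortex. Black points have an unadjusted p under 0.05 (204 on the left, 60 on the right), circles mark the late risers described in the text and squares the tested microRNAs of the miR-200 family and miR-183 cluster.

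The largest fitted value of the step was that of miR-701-5p, closely followed by miR-494-3p and miR-718. miR-701-5p stood at 62.7, 114 and 328 CPM in replicates 1, 2 and 3 at 6 h and at 651, 334 and 3659 CPM at 12 h. The 2 groups did not overlap, and all 3 replicate pairs were higher at 12 h, with log2 ratios of 3.35, 1.55 and 3.48 (on CPM + 1, as for every ratio within a replicate number). From the fit, the log2 fold change came to 3.05 ± 0.75 (SE; edgeR adjusted p = 0.117). Its level in sham cortex was 18.1 ± 4.72 CPM (SD, n = 3), so the 6 h libraries were already above sham. Without replicate 3 at 12 h the value was 1.61 (edgeR adjusted p = 0.479), and without both replicate 3 libraries 2.38 (0.351).

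miR-718, encoded within the gene of the innate immune kinase Irak1, was at 29.9, 62.0 and 154 CPM in replicates 1, 2 and 3 at 6 h and at 247, 185 and 1914 CPM at 12 h. Its groups did not overlap either, and its fitted value was 3.04 ± 0.75 (edgeR adjusted p = 0.117). Sham libraries held 28.7 ± 7.91 CPM, close to replicate 1 at 6 h. The levels of miR-494-3p were 8.96, 12.1 and 9.96 CPM in replicates 1, 2 and 3 at 6 h and at 32.9, 25.8 and 198 CPM at 12 h. Here the 6 h libraries lay close together and near sham (8.92 ± 2.44 CPM), and all 3 later libraries were above them, replicate 3 by far the most. The fitted value was 3.05 ± 0.76 (edgeR adjusted p = 0.117), and 1.19 (0.479) without replicate 3 at 12 h.

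miR-3109-5p, from an intron of the annexin gene Anxa2, was at 8.96, 9.47 and 24.1 CPM in replicates 1, 2 and 3 at 6 h and at 29.8, 40.5 and 294 CPM at 12 h, a log2 fold change of 2.92 ± 0.72. For miR-5627-3p the levels were 12.9, 19.8 and 34.9 CPM in replicates 1, 2 and 3 at 6 h and at 89.5, 44.2 and 399 CPM at 12 h (2.75 ± 0.67). For miR-7237-3p they were 22.9, 35.3 and 52.3 CPM in replicates 1, 2 and 3 at 6 h and at 88.5, 65.1 and 395 CPM at 12 h (2.24 ± 0.53). In these 3 the groups did not overlap and replicate 3 was highest at both times. miR-7666-5p, with 17.9, 41.3 and 40.7 CPM in replicates 1, 2 and 3 at 6 h and at 111, 52.8 and 679.8 CPM at 12 h (2.93 ± 0.73), was also separated, but its replicate 2 ratio was only 0.35. The edgeR adjusted p of each of these 4 was 0.117. Over the 7 entries called without the block, the fitted values were between 0.92 and 1.61 without replicate 3 at 12 h, and between 1.35 and 2.38 without both replicate 3 libraries (edgeR adjusted p from 0.351 to 0.483 over both).

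Of the other entries of smallest p, miR-1247-5p, from the antisense transcript Dio3os, was at 44.8, 57.7 and 78.0 CPM in replicates 1, 2 and 3 at 6 h and at 114, 88.4 and 562 CPM at 12 h, a fitted value of 1.95 ± 0.47 (edgeR adjusted p = 0.117, and 0.0501 without the block). miR-5134-3p rested on 7 to 10 counts per library at 6 h and on 34, 10 and 68 counts at 12 h, with 2.27 ± 0.53 (edgeR adjusted p = 0.117). miR-696 rested on 4 to 6 counts at 6 h and on 13, 4 and 48 at 12 h, and was the 1 entry of this set whose groups overlapped (2.28 ± 0.57, edgeR adjusted p = 0.117). Both miR-5134-3p and miR-696 met the naming rule's mean of 10 CPM only through 12 h. Their 6 h means were 7.46 and 4.14 CPM. Without replicate 3 at 12 h the fitted values of miR-1247-5p, miR-5134-3p and miR-696 were 0.73, 1.33 and 1.00.

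**Figure D2:**
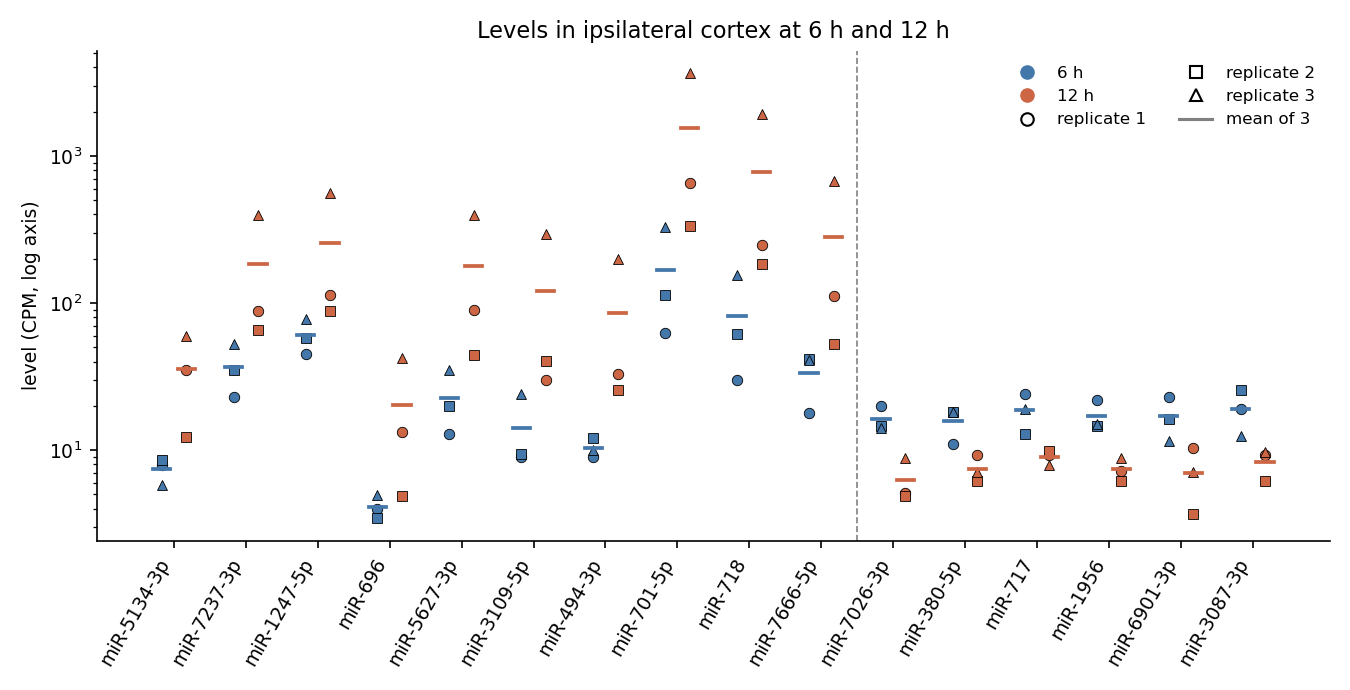
Levels (CPM, log axis) of the named microRNAs in every ipsilateral library at 6 h (blue) and 12 h (orange), with circles, squares and triangles for replicates 1, 2 and 3 and a bar at the mean of 3. To the left of the dashed line, where 12 h is higher, the triangle of replicate 3 is the highest 12 h point of all 10 microRNAs; miR-701-5p spans 62.7 to 328 CPM at 6 h and 334 to 3659 CPM at 12 h.

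A list of 16 entries led the difference between hemispheres at 12 and 24 h in an earlier analysis of these libraries. They are called late risers here. The list was chosen on the same 12 h libraries, so its direction is not independent evidence. Of the 16, 14 had an unadjusted p under 0.05 in the step, all higher, where the background is 8.5%, and none passed the adjusted threshold. The median fitted value was 2.15, against -0.032 over all tested entries. The 3 days of surgery differed. In replicates 1 and 3 all 16 were past 2-fold higher at 12 h, with medians of 2.29 and 2.81 on the log2 scale. In replicate 2 the median was -0.043, 7 of 16 were higher and 3 were past 2-fold, namely miR-701-5p, miR-718 and miR-3109-5p, which are also the 3 whose groups did not overlap. Summed over the list, levels were 647, 1315 and 2763 CPM at 6 h and 3545, 1645 and 19614 CPM at 12 h, against 290.1 to 430.4 CPM in sham. All 6 libraries thus lay above sham, and replicate 2 at 12 h lay below replicate 3 at 6 h. That library also had the lowest TMM factor of the series, whose part in this was not tested. Without replicate 3 at 12 h the list's median was 0.61, and without both replicate 3 libraries 1.05.

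Within the list, miR-6240 shows the split between days. Whether reads counted for this entry stem from ribosomal RNA was not tested. Its levels were 69.7, 169 and 182.6 CPM in replicates 1, 2 and 3 at 6 h and at 228, 166 and 2986 CPM at 12 h, with ratios of 1.70, -0.026 and 4.02. The fitted value was 2.51 ± 0.74 (edgeR adjusted p = 0.169), and 0.66 without replicate 3 at 12 h. miR-3960, which is clustered with miR-2861, was at 138, 247 and 581 CPM in replicates 1, 2 and 3 at 6 h and at 655, 221 and 2176 CPM at 12 h. Its groups overlapped, with 1.44 ± 0.61 (edgeR adjusted p = 0.285), and miR-2861 had 1.93 ± 0.68 (0.226). miR-8109 had the lowest value of the list, 0.97 ± 0.66 (0.522), with replicate 2 at -1.14, and turned to -0.50 without replicate 3 at 12 h. miR-1934-5p, at 1.35 ± 0.71, was the other member with an unadjusted p above 0.05, and its value without that library was -0.023. Fitted values of the remaining members, miR-7687-3p, miR-6968-5p, miR-1893, miR-7034-3p, miR-346-3p, miR-6538, miR-5131 and miR-1892, lay between 1.58 and 2.42.

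**Figure D3:**
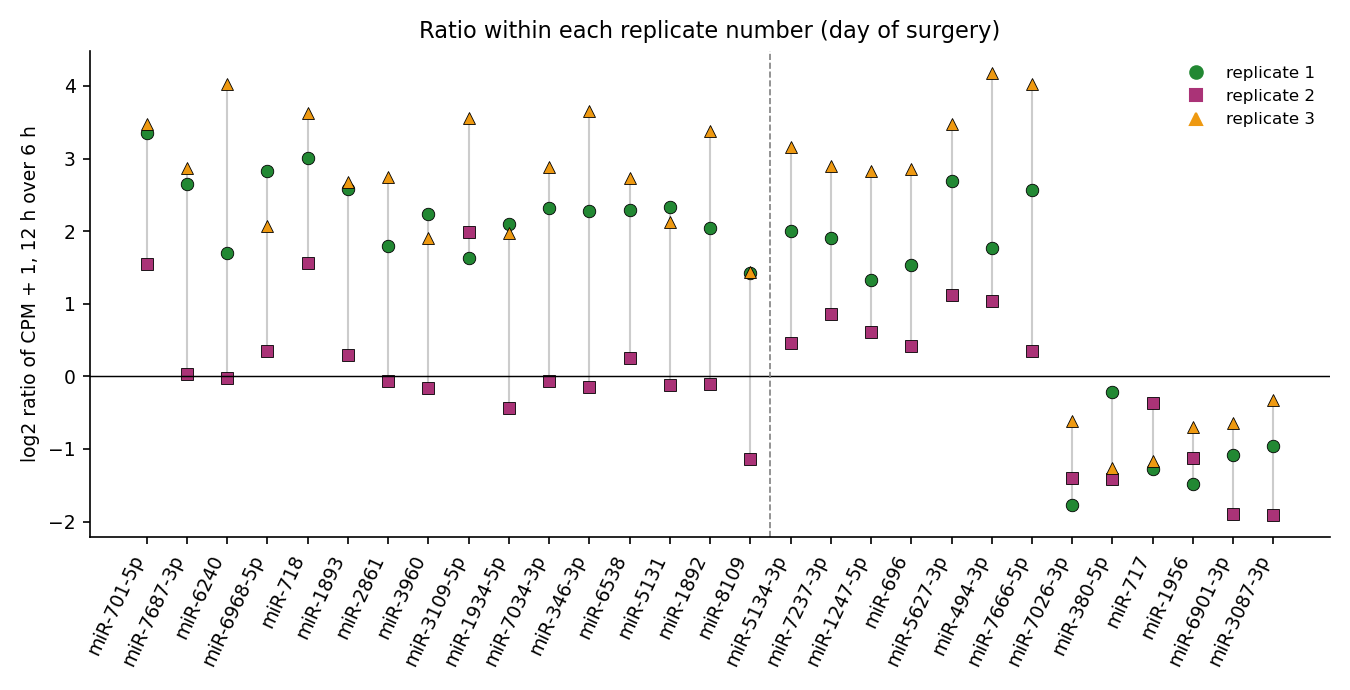
Log2 ratio of CPM + 1 at 12 h over 6 h (vertical axis) within replicate 1 (circles), 2 (squares) and 3 (triangles) for the 16 late risers (left of the dashed line) and the other named microRNAs. Replicates 1 and 3 are above 1 for all 16 late risers, while replicate 2 lies between -1.14 and 1.99.

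Entries lower at 12 h were mostly rare. The 79 with an unadjusted p under 0.05 had a median of 8.24 CPM over the 6 libraries, against 44.1 CPM for the 125 higher ones. These levels include the 12 h values by which both sets were picked. In sham cortex the medians lay closer, at 10.3 CPM for the lower set and 13.9 CPM for the higher set. Over all tested entries the sham median was 14.1 CPM. Their median ratios were -0.97, -1.17 and -0.71 in replicates 1, 2 and 3. All 3 days went the same way in 73 of the 79 and in 74 of the 125, beside 443 of all 1470 tested entries. The 125 had median ratios of 1.18, 0.29 and 2.25, and replicate 3 was the highest of the 12 h libraries for 98 of them, against 568 of all 1470. As both sets were picked by these p-values, their ratios are descriptions.

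Among the lower entries of at least 10 CPM, miR-7026-3p was at 19.9, 14.6 and 14.1 CPM in replicates 1, 2 and 3 at 6 h and at 5.14, 4.91 and 8.83 CPM at 12 h, a fitted value of -1.31 ± 0.39 (edgeR adjusted p = 0.169). Sham was at 16.2 ± 3.99 CPM, so the 6 h level was the one near sham. miR-380-5p of the Dlk1-Dio3 cluster was at 10.95, 18.1 and 18.3 CPM in replicates 1, 2 and 3 at 6 h and at 9.26, 6.14 and 7.06 CPM at 12 h (-1.04 ± 0.31). The groups did not overlap for either, nor for miR-717 (-1.04 ± 0.31), miR-1956 (-1.17 ± 0.35), miR-6901-3p (-1.23 ± 0.37) and miR-3087-3p (-1.14 ± 0.35), each with an edgeR adjusted p of 0.169. These entries are thinly covered: counts per library ran from 11 to 30 at 6 h and from 3 to 11 at 12 h. They met the mean of 10 CPM through 6 h, as their 12 h means lay between 6.29 and 9.01 CPM. Without replicate 3 at 12 h their fitted values were between -1.69 (miR-7026-3p) and -0.93 (miR-380-5p).

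Separation of the groups gave another view of the balance of directions. It was counted on TMM-scaled levels only and not repeated under the other scalings. All 3 libraries at 12 h were above all 3 at 6 h for 33 entries (2.24%) and below them for 112 (7.62%). In contralateral cortex these numbers were 63 (4.29%) and 64 (4.35%). A change past 2-fold in all 3 replicate pairs was seen upward for 10 entries (0.68%), among them miR-701-5p, miR-718, miR-494-3p, miR-3109-5p, miR-5627-3p and miR-7118-5p, and downward for 4 (0.272%): miR-7042-3p, miR-5620-5p, miR-7676-5p and miR-1933-5p, named after their values were seen. In contralateral cortex 2 entries (0.136%) were past 2-fold upward and 0 (0%) downward.

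Fitted values differed between abundance bins. The bins rest on means that include the ipsilateral 12 h libraries, so a rise lifts an entry and a fall lowers it. Bin and direction are therefore not independent. The 467 entries with a mean under 10 CPM over the 27 libraries had a median fitted value of -0.29, and 44 of the 79 low-p entries in the downward direction were among them. The 720 entries of 10 to 100 CPM had a median of -0.0037, and held 82 of the 125 upward ones. The 206 entries of 100 to 1000 CPM had 0.16 with 28 upward and 0 downward, and the 77 above that 0.12 with 5 and 1. Contralateral medians in the same order were -0.16, 0.0089, 0.13 and 0.095. This balance depended on the scaling. The low-p counts were 125 higher and 79 lower under TMM, 98 and 101 under total counts, 166 and 55 under RLE factors, and 81 and 124 under TMM factors from abundant entries. The median of all entries was -0.03, -0.12, 0.07 and -0.17 in that order.

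Base composition was not used in any choice of entries. A RefSeq mature sequence was matched for 1290 of the 1470 tested entries, including 106 of the 125 higher and 73 of the 79 lower ones. Median GC content was 63.6% in the higher set, 50% in the lower set and 52.4% over all tested entries. No test was made of this difference. Names without an arm made up 24.0% of the higher set, 22.8% of the lower set and 15.6% of all entries. The opposite arm of the same hairpin was tested for 73 of the higher entries and for 49 of the lower ones. It was also at an unadjusted p under 0.05 in the same direction in 8 and 10 cases, beside 8.5% and 5.37% of all tested entries in those directions. These cases are entries and not separate hairpins, as a hairpin with both arms in a set was counted from each arm. The median fitted value of the opposite arm was -0.0048 and -0.48.

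The contralateral hemisphere gave the same interval in libraries that the ipsilateral step does not use. Whether both sides came from the same mice was not given in the sources used here. No entry passed there (0 of 1470, edgeR, smallest adjusted p = 0.968). DESeq2 also called 0 in this step, and edgeR fitted to the 6 contralateral libraries alone called 3 higher, miR-1195, miR-6927-3p and miR-6979-3p, named after their values were seen. The difference between the 2 steps, tested as an interaction, passed for 0 entries in edgeR and 0 in DESeq2, and 64 entries (4.35%) had an unadjusted p under 0.05, 31 of them with the larger value ipsilaterally (2.11%) and 33 contralaterally (2.24%), near the 4.08% of the contralateral step itself. The step was therefore not shown to differ between the hemispheres. For miR-701-5p the contralateral level was 12.4 ± 2.83 CPM at 6 h and 13.6 ± 5.89 CPM at 12 h (SD, n = 3), a log2 fold change of 0.12 ± 0.93. The ipsilateral step exceeded it by 2.93 ± 1.18 (SE, edgeR adjusted p = 0.900). The same difference was 3.01 ± 1.10 for miR-718, 2.97 ± 1.20 for miR-494-3p and 3.01 ± 1.25 for miR-3109-5p (edgeR adjusted p = 0.9 each). miR-1247-5p had the smallest p of the upward entries in this test, with 2.54 ± 0.68, and miR-380-5p that of the downward ones, with -1.66 ± 0.45 (edgeR adjusted p = 0.846 each). miR-1956 had -1.17 ± 0.35 ipsilaterally and -0.91 ± 0.37 contralaterally, where its groups overlapped (edgeR adjusted p = 0.169 and 0.991).

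**Figure D4:**
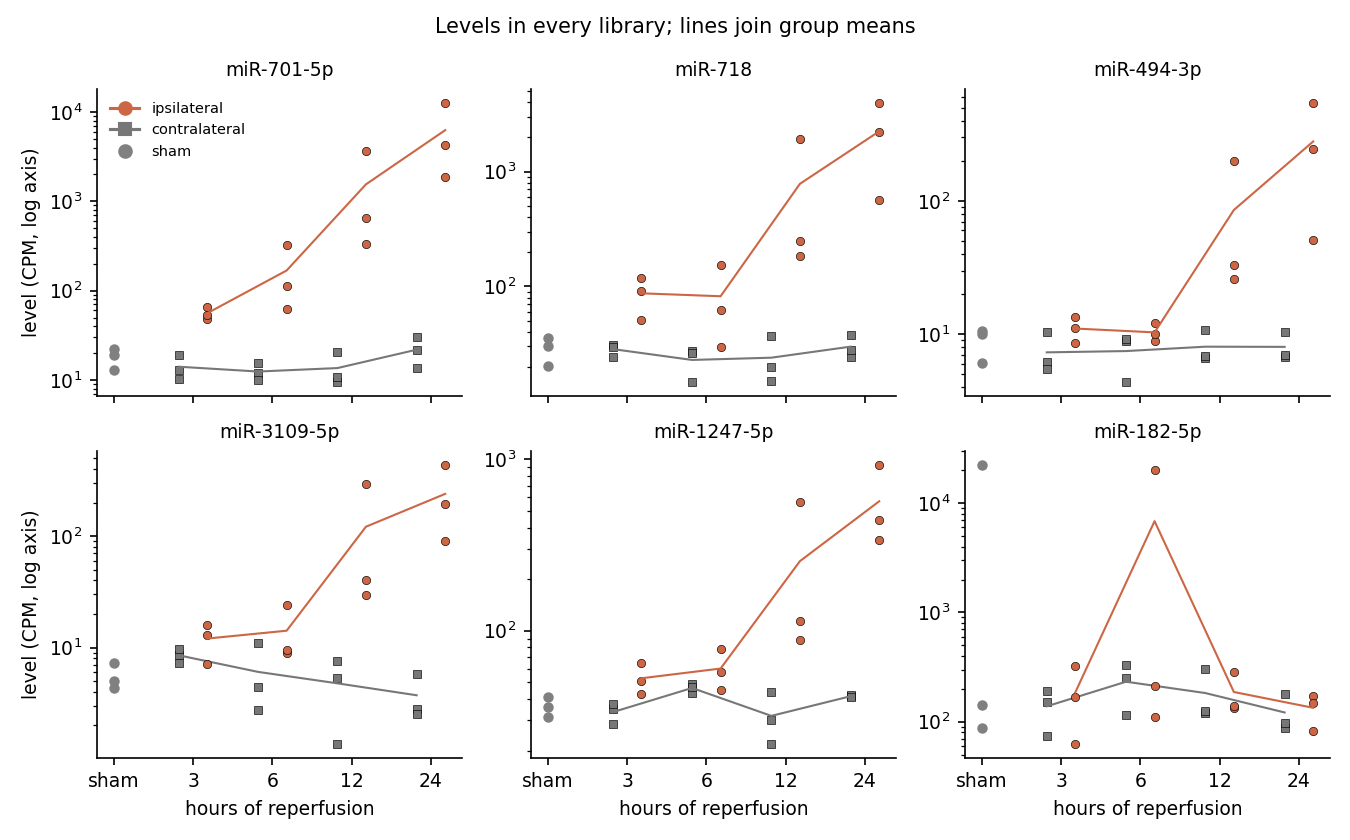
Levels (CPM, log axis) of 6 microRNAs in all 27 libraries by hours of reperfusion, for sham (grey circles), contralateral (grey squares) and ipsilateral cortex (orange circles), with lines joining the means of 3. The ipsilateral points of miR-701-5p at 12 h lie between 334 and 3659 CPM against contralateral means of 12.4 and 13.6 CPM at 6 and 12 h, while miR-182-5p is high in 1 library at 6 h and in 1 sham library.

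The neighbouring ipsilateral steps share libraries with the 6 to 12 h step, so their values are only set side by side. From 3 to 6 h, from 6 to 12 h and from 12 to 24 h, miR-701-5p had log2 fold changes of 1.38, 3.05 and 2.42. miR-718 had -0.15, 3.04 and 2.03, and miR-494-3p -0.081, 3.05 and 1.61. These 3 were named for their values in the step from 6 to 12 h, so the order of the steps is not read. The list of late risers had medians of -0.43, 2.15 and 1.66. From 12 to 24 h the 6 named lower entries, picked for low values in the same 12 h libraries, had 1.45 (miR-7026-3p), 0.97 (miR-1956), 0.53 (miR-3087-3p), 0.50 (miR-380-5p), 0.40 (miR-6901-3p) and 0.082 (miR-717). No entry passed edgeR with the block in either neighbouring step (smallest adjusted p = 0.907 and 0.0573); unadjusted p-values under 0.05 numbered 73 (4.97%; 2.38% higher, 2.59% lower) from 3 to 6 h and 374 (25.4%; 14.1% higher, 11.4% lower) from 12 to 24 h.

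The most abundant microRNAs of cortex had small fitted values. The 10 of highest mean had values between -0.30 for let-7f-5p and 0.37 for miR-26a-5p, none passing (edgeR adjusted p from 0.432 for miR-26a-5p to 0.889 for miR-434-3p). miR-181a-5p, the most abundant, was at 121753, 100603 and 128817 CPM in replicates 1, 2 and 3 at 6 h and at 89616, 139916 and 80564 CPM at 12 h. Replicate 2 was higher at 12 h and the other 2 lower, so the groups overlapped (-0.21 ± 0.18). let-7f-5p split in the same way, with ratios of -0.52, 0.34 and -0.75. miR-434-3p, transcribed antisense to the imprinted gene Rtl1, was at 22547, 28707 and 58441 CPM in replicates 1, 2 and 3 at 6 h and at 52155, 35918 and 17022 CPM at 12 h, and its ratios ran from 1.21 in replicate 1 to -1.78 in replicate 3. miR-127-3p, miR-128-3p, miR-22-3p, miR-9-5p, miR-30a-5p and miR-27b-3p had fitted values between 0.11 and 0.29. In miR-9-5p the sign turned under TMM factors from abundant entries (-0.044).

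Lists of families and cell-type microRNAs were read by their counts and medians, against a median of -0.03 over all tested entries. No member of any list passed the test. The list entries miR-219a-5p, miR-126a-5p, miR-486a-5p and miR-133b-3p were not analysed here. Close to 0 were the medians of the let-7 family (-0.045, 9 tested), the miR-30 family (0.12, 5) and the miR-181 family (-0.17, 4). The miR-132 and miR-212 cluster, induced by neuronal activity, had 0.23 (4), and the neuron-enriched list 0.22 (8), with miR-124-3p at 0.47 ± 0.19 (edgeR adjusted p = 0.254; with 1 library left out, from 0.27 to 0.63). All 3 tested members of the miR-29 family lay above 0, with a median of 0.39, and so did all 5 of the miR-15/16 family (0.36) and all 5 of the miR-23/27/24 clusters (0.35). miR-29a-3p was at 6801, 12126 and 6856 CPM in replicates 1, 2 and 3 at 6 h and at 7999, 17881 and 10203 CPM at 12 h. Each pair was higher at 12 h, but the groups overlapped because replicate 2 stood high at both times (0.45 ± 0.19, edgeR adjusted p = 0.285, and 0.724 without the block; with 1 library left out, from 0.29 to 0.57).

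Replicate 2 gave the highest of the 3 ratios for the medians of the let-7, miR-30, miR-181 and miR-29 families and of the pair miR-132 and miR-212. Their replicate 2 medians were 0.37, 0.51, 0.46, 0.62 and 0.66, against -0.36, -0.32, -0.73, -0.013 and 0.10 in replicate 3. The 77 entries of at least 1000 CPM had medians of -0.076, 0.43 and -0.20 in replicates 1, 2 and 3. The range between days was thus wider than these fitted medians. For the miR-29 family the SD of the 3 replicate medians, 0.32, was below its fitted median of 0.39.

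Markers of blood and vessel cells showed no call. The vascular list had a median of 0.14 (3 tested), and the red blood cell list 0.32 (3), with miR-144-3p (0.64 ± 0.28, edgeR adjusted p = 0.312). The leukocyte and microglia list had 0.15 (3), with miR-142a-5p at 167, 346 and 151 CPM in replicates 1, 2 and 3 at 6 h and at 153, 545 and 343 CPM at 12 h. The replicate 1 pair was lower at 12 h and the other 2 higher, and the fitted value was 0.57 ± 0.24 (edgeR adjusted p = 0.285; with 1 library left out, from 0.33 to 0.79). miR-223-3p, a myeloid marker, had 0.15 ± 0.39, and miR-150-5p, a lymphocyte marker, -0.030 ± 0.36. In bulk tissue, a change in the number of cells of a type and a change in RNA per cell cannot be told apart. The summed leukocyte list ranged from 630.4 to 1728 CPM at 6 h and from 896 to 1775 CPM at 12 h, and the red blood cell list from 142 to 209 and from 196 to 260.2 CPM. The 2 times overlapped in both sums.

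Stress-linked microRNAs also showed no call. The hypoxia-induced miR-210-3p was at 51.8, 47.3 and 67.2 CPM in replicates 1, 2 and 3 at 6 h and at 62.7, 84.7 and 47.7 CPM at 12 h, with overlapping groups (0.17 ± 0.27, edgeR adjusted p = 0.811). miR-21a-5p, raised in many injured tissues, was at 1654, 1786 and 1553 CPM in replicates 1, 2 and 3 at 6 h and at 1769, 2347 and 1698 CPM at 12 h. All 3 pairs were higher at 12 h by small ratios (0.21 ± 0.20, 0.673). The median was 0.14 over 4 tested inflammation-responsive entries, miR-21a-5p among them. Of the others, miR-155-5p was at 0.36 ± 0.38 on 5 to 15 counts per library. miR-146a-5p was at 0.063 ± 0.30 and miR-146b-5p at -0.16 ± 0.25. The p53-linked miR-34 family had -0.13 (5), and the proliferation-linked miR-17/92 clusters 0.083 (12). Within the latter, miR-18a-5p (2.32 ± 0.96, edgeR adjusted p = 0.285) and miR-18b-5p (1.74 ± 0.67, edgeR adjusted p = 0.254) had the highest values of the list. miR-18b-5p was at 6.97, 6.03 and 6.64 CPM in replicates 1, 2 and 3 at 6 h and at 16.5, 4.91 and 43.3 CPM at 12 h, with overlapping groups and a value of 0.52 without replicate 3 at 12 h. miR-18a-5p was at 6.97, 15.5 and 9.13 CPM in replicates 1, 2 and 3 at 6 h and at 19.5, 6.14 and 139 CPM at 12 h, and its value without replicate 3 at 12 h was 0.012. The medians of the vascular, inflammation-responsive, hypoxia, miR-30, miR-17/92, let-7, oligodendrocyte and muscle lists were close to 0 and changed sign under at least 1 other scaling.

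In the imprinted Dlk1-Dio3 cluster, which is expressed in brain, 23 of the 30 tested list members lay above 0, with a median of 0.24 and replicate medians of 0.21, 0.39 and 0.17. Apart from miR-494-3p and miR-299a-5p (0.85 ± 0.37, edgeR adjusted p = 0.285), no member had an unadjusted p under 0.05. For miR-299a-5p the groups overlapped, the replicate 2 ratio was -0.15, and the value without replicate 3 at 12 h was 0.28. Of the entries named first, miR-494-3p and miR-380-5p of that cluster lay on opposite sides of 0, and miR-1247-5p from Dio3os lay above 0. The list does not hold miR-380-5p or miR-1247-5p. Choroid plexus microRNAs had a median of 0.18 (2 tested), between miR-204-5p at -0.15 ± 0.22 and miR-211-5p at 0.52 ± 0.39. Oligodendrocyte microRNAs had -0.051 (2), between miR-219a-2-3p at -0.44 ± 0.24 and miR-338-3p at 0.34 ± 0.23. The muscle entry miR-133a-3p had 0.12 ± 0.25.

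**Figure D5:**
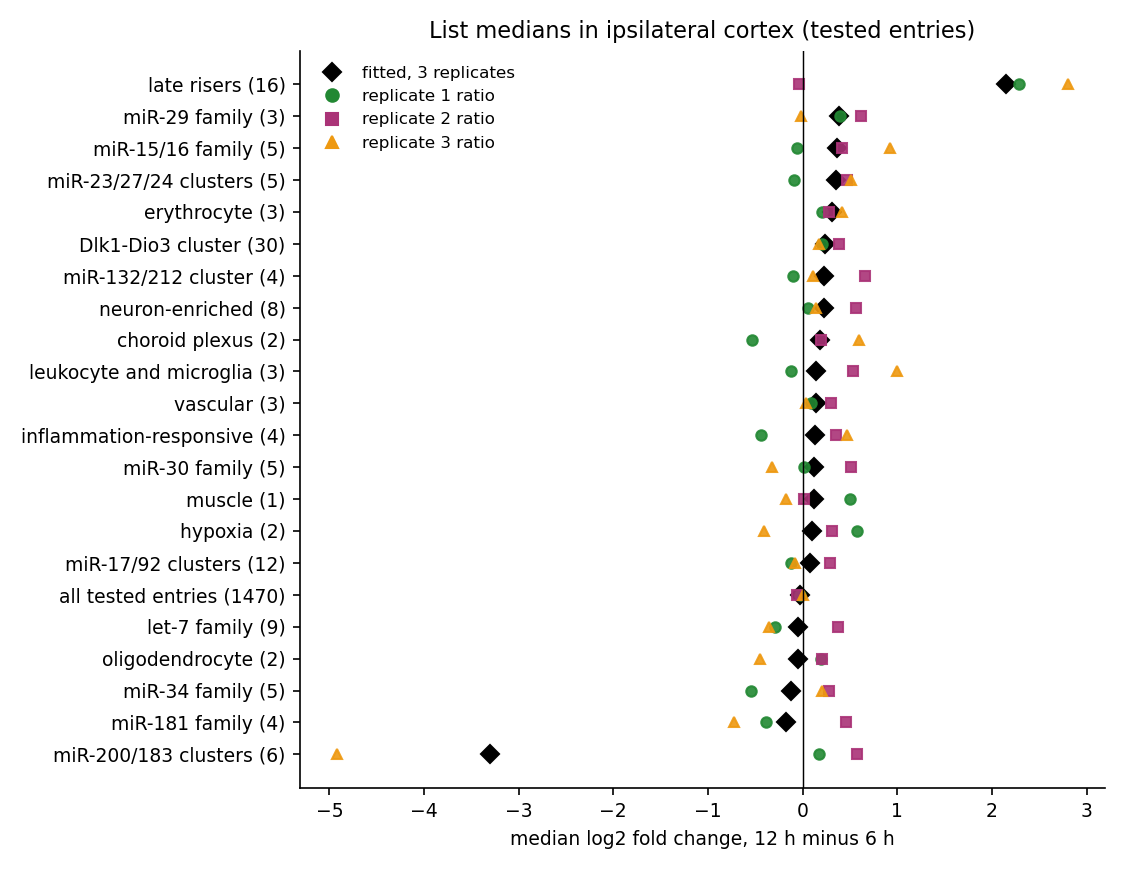
Median log2 fold change from 6 h to 12 h of each list (diamonds, fitted) with the median ratio in replicates 1, 2 and 3 (circles, squares, triangles), and the number of tested members in brackets. The late risers stand at 2.15 and the list of the miR-200 family and miR-183 cluster at -3.31, each with 1 replicate far from the others, and the other lists lie between -0.17 and 0.39.

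The miR-200 family and the miR-183 cluster had the lowest median of the lists. Of 8 entries sought, miR-200c-3p and miR-96-5p did not pass the filter. Their sequences are shown because 2 seeds are each shared by a pair of entries.
miR-200a-3p: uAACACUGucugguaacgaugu
miR-141-3p: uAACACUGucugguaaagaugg
miR-200b-3p: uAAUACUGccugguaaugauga
miR-429-3p: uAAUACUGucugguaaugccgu
miR-183-5p: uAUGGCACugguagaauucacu
miR-182-5p: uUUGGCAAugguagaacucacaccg
miR-200a-3p and miR-141-3p carry the seed AACACUG, and miR-200b-3p and miR-429-3p the seed AAUACUG, so members of a pair differ only outside it and could share reads. All 6 had values below 0, with a median of -3.31, and 3 had an unadjusted p under 0.05, where the downward background is 5.37%. miR-182-5p was at 214, 111 and 20224 CPM in replicates 1, 2 and 3 at 6 h and at 135, 139.9 and 286 CPM at 12 h, a fitted value of -5.28 ± 2.00 (edgeR adjusted p = 0.254). A single library, replicate 3 at 6 h, was high. DESeq2 called miR-182-5p and miR-200a-3p lower. Without that library all 6 values were above 0, from 0.29 for miR-429-3p to 0.70 for miR-182-5p. In sham cortex the summed level of these 6 microRNAs ran from 441 to 29721 CPM, so a high library also occurred there. The late risers gave a median of 2.37 without that library.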

How the data were processed

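Small RNA inserts of 15 to 35 bp were read for 69 bp on a MiSeq, per the labels' protocols. The deposited table holds raw counts for 1842 mature microRNA entries in 27 libraries. The submitters' processing notes list Novoalign and edgeR, with no role. The build, the annotation release and the treatment of multiply matching reads were not given in the sources used here. Near-identical entries are therefore uncertain. Members and lists were chosen with earlier results of these data known.

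One edgeR model (4.0.16, R 4.3.3) covered all 27 libraries, with group means, the replicate number as a block, TMM factors and robust dispersions (16 residual degrees of freedom). filterByExpr kept 1470 entries. P-values of quasi-likelihood F tests had a Benjamini-Hochberg adjustment over all of them, with calls at an adjusted p under 0.05. Standard errors are the fitted change over the root of F. The contralateral step and the difference of the steps came from the same fit. Its code was run on simulated counts in which no library was set apart from the others. That run therefore does not show how the fit handles the deviating libraries seen here. Alternatives were no block, 3 other scalings, DESeq2 1.42.0, 2 filters, the compared libraries alone and leaving out each library. Whether a library is 1 animal was not given in the sources used here. Reads carry no molecular identifiers.

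The design text ties each replicate set to a day of surgery. Within the 6 libraries, residuals about the group means correlated at 0.244 to 0.280 in the 3 same-numbered pairs and at -0.288 to 0.0386 in the 6 others. No 2 replicates agreed within counting noise (chi-square over its degrees of freedom at least 37.9).

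Entries are named by rule from those with a mean of at least 10 CPM over the 6 libraries compared. Named are up to 12 calls per direction or, under 6 calls, the 6 of smallest p. The mean includes the time at which an entry is high. The 10 most abundant, the 4 deviating most per library and list members are added. Others are marked in the text.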

Additional observations from a re-analysis of the deposited data

How the results depend on the processing

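With the replicate block no entry was called in the ipsilateral step under total counts, RLE factors, TMM factors from abundant entries, either filter, or a fit to the 6 libraries. Without the block 7 were higher and 0 lower; DESeq2 with the block called 47 higher and 2 lower. Leaving out 1 library gave 0 to 30 higher and 0 lower. The contralateral step gave 0 calls under each of these settings except the fit to its own 6 libraries, with 3 higher, and the difference of the steps gave 0 under all of them. Chosen after seeing the data, leaving out both replicate 3 libraries gave 0 calls, as did leaving out replicate 3 at 12 h without the block. Fitted values changed sign with single libraries left out for miR-210-3p -0.079 to 0.44, miR-434-3p -0.55 to 0.50, miR-9-5p -0.057 to 0.27, miR-30a-5p -0.019 to 0.30, miR-1934-5p -0.023 to 1.82, miR-8109 -0.50 to 1.57, miR-200a-3p -5.64 to 0.59, miR-200b-3p -2.74 to 0.53, miR-141-3p -4.76 to 0.49, miR-429-3p -3.47 to 0.29, miR-183-5p -1.74 to 0.54 and miR-182-5p -6.08 to 0.70. miR-9-5p was at -0.044 under TMM factors from abundant entries. Without both replicate 3 libraries the values were 0.025 for miR-181a-5p, 0.75 for miR-434-3p, 0.52 for miR-200a-3p, 0.41 for miR-429-3p, 0.66 for miR-200b-3p and 0.19 for miR-183-5p. Without the block and replicate 3 at 12 h they were 0.27 for miR-434-3p and -0.50 for miR-8109. The causes were not tested. Depth limits the lower entries, which rest on 3 to 30 counts per library.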
